A study of Mus musculus with 12 samples.

Results

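The genes described here encode the subunits of the vacuolar H+-ATPase (V-ATPase), the proton pump of lysosomes and endosomes, and the cathepsins, the proteases that work in the acid it makes. They were taken by symbol from a table of raw RNA-seq counts: every symbol beginning with Atp6v0 or Atp6v1, together with Atp6ap1, Atp6ap2, Tcirg1 and all symbols beginning with Cts. Of 37 symbols found, Ctsk and Atp6v0d2, 2 markers of osteoclasts, were set aside, which left 35 genes of the 22317 in the table. These were 23 V-ATPase genes (11 of the V1 sector, 9 of the V0 sector, 2 accessory proteins and 1 pseudogene) and 12 cathepsins.

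The V-ATPase is a rotary motor. Its cytosolic V1 sector splits ATP, and its membrane-bound V0 sector carries protons across the membrane. Several subunits exist as isoforms that different cell types use: in osteoclasts the a3 isoform, encoded by Tcirg1, sends the pump to the plasma membrane facing the bone, while in neurons the pump acidifies synaptic vesicles so that they can be filled with transmitter. Cathepsins are made as inactive precursors and are activated in acid compartments. Most are cysteine proteases, Ctsd and Ctse are aspartic proteases, and Ctsa is a serine carboxypeptidase.

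The libraries came from male BALB/c mice aged 8 weeks in which photothrombosis (PT), in which a laser excites an injected dye and so clots the vessels of a small area, was applied either to the skull or to the brain. SB2 and SB4 are labelled as brain cortex on day 2 and day 4 after skull PT, and BS2 and BS6 as interparietal bone on day 2 and day 6 after brain PT, with 3 libraries in each group. All 4 groups thus come from animals with an injury in the other tissue, and uninjured controls and the injured tissues themselves were not analysed here. Total counts per library lay between 14126082 and 18972654, and levels are given as CPM, which set each count relative to the size of its library, after TMM scaling, which balances the composition of libraries.

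The labelled tissues were checked against marker genes. The 10 neuron markers summed to 72.1 to 114 CPM in the SB2 libraries, 11670 to 12590 in SB4, 11160 to 11540 in BS2 and 73.4 to 144 in BS6. The 8 osteoclast markers measured summed to 2919 to 3221 CPM in SB2, 17.2 to 18.2 in SB4, 12.9 to 14.02 in BS2 and 1644 to 3520 in BS6, and Atp6v0d2 and Ocstamp were at 0 in every SB4 and BS2 library. The markers thus went against the label in 2 groups: the libraries labelled SB2 were rich in bone transcripts although labelled brain, and those labelled BS2 were rich in brain transcripts although labelled bone. All libraries of these groups are affected, so no result could be given without them, and every direction below refers to the libraries as labelled. BS6 replicate 2 stood apart within its group, with 25770 CPM of neutrophil lineage markers against 1545 and 3512 in the others.

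The V-ATPase genes made up 0.226% to 0.234% of all counts in the SB2 libraries and 0.212% to 0.249% in BS6, but 0.450% to 0.465% in SB4 and 0.449% to 0.461% in BS2. The cathepsins ran the other way. Their 12 genes held 0.324% to 0.337% of the counts in SB2 and 0.259% to 0.425% in BS6, but 0.0824% to 0.0996% in SB4 and 0.0806% to 0.0848% in BS2. For both families the ranges of SB2 and BS6 overlapped each other and did not reach those of SB4 and BS2. These are bulk samples, in which fewer cells of a type and less RNA per cell cannot be told apart.

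Levels of different genes were compared per kb of exon, as TPM, the share of a transcript among all transcripts after division by length. Ctsk, which was set aside, stood at 3189 ± 122 TPM in SB2 and 2558 ± 1565 TPM in BS6 (SD, n = 3 here and for all groups below). Among the 12 cathepsins kept, Ctsb led in SB2 at 855 ± 45.1 TPM. Ctsz at 742 ± 19.5 TPM, Ctsd at 418 ± 21.2 TPM and Ctss at 267 ± 29.8 TPM followed, and none of these neighbours overlapped. In BS6 the same 4 of the 12 led. There Ctsz at 646 ± 169.6 TPM, Ctsb at 638 ± 300 TPM and Ctss at 536 ± 340 TPM overlapped with their neighbours. Ctsb also led in SB4 at 346 ± 29.1 TPM and in BS2 at 304 ± 15.03 TPM. Of the counts of these 12 genes, without Ctsk, Ctsb held 56.0% to 57.2% in SB4 and 54.8% to 57.5% in BS2. It held 45.4% to 46.3% in SB2 and 29.8% to 38.2% in BS6. Among the V-ATPase genes with a protein product, Atp6v1g2 was the highest in SB4 at 700 ± 32.4 TPM and in BS2 at 638 ± 17.1 TPM. In SB2 that place went to Atp6ap1 at 345 ± 13.2 TPM, which overlapped with Atp6v1g1 at 335 ± 12.2 TPM. In BS6 it went to Atp6v1g1 at 303 ± 21.9 TPM, which overlapped with Atp6ap1 at 286 ± 17.4 TPM. The pseudogene Atp6v0c-ps2 ranked above these genes in all 4 groups. It stood at 759 TPM in SB2, 1380 in SB4, 1325 in BS2 and 689 in BS6.

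The pseudogene needs a remark before the subunits are described. Atp6v0c on chromosome 17 encodes the c subunit, the proteolipid of the rotating ring, in 3 coding exons (468 bases). Atp6v0c-ps2 (chr6:37806086-37806550, plus strand, GENCODE M21 on GRCm38) is a processed copy of 465 bases that matches this coding sequence at all positions but 1 (99.8% identical). The longest identical run was 354 bases, more than the 150 bases of a read. The first 120 bases of both, with the differing base in capitals, are shown because they carry the only difference.
Atp6v0c: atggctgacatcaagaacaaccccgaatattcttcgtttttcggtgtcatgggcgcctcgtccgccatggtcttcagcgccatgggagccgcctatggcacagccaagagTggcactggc
Atp6v0c-ps2: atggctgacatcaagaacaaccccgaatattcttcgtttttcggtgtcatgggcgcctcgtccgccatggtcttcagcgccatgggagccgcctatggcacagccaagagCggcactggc
The table gave 91.8 to 106 CPM to the pseudogene and 9.34 to 11.9 CPM to Atp6v0c in SB2, and 157 to 164 against 10.9 to 11.1 CPM in SB4. How reads that match both were assigned is not given in the sources used here, so the separate values of these genes are uncertain. The place of Atp6v0c in the order of V-ATPase genes above is therefore uncertain too. With it, which gene with a protein product came first in each group is uncertain. Both genes together took 0.0103% to 0.0121% of the counts in SB2 and 0.0167% to 0.0169% in SB4. They took 0.0159% to 0.0178% in BS2 and 0.0101% to 0.0118% in BS6.

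Many lysosomal genes carry near their start a palindromic element that is bound by TFEB and its relatives, transcription factors of lysosome formation. The promoter table of RefSeq (GRCm38.p6, 250 bases before to 50 bases after each start) held 25 of the 35 genes. TCACGTGA was found in 5 of them, against 1.12% of the 27025 genes with a promoter in the table. The shorter CACGTG, which lies within it, was found in 8 (32.0%), namely these 5 and Atp6v0b, Ctsf and Ctsl, against 8.09% of all genes. Both are the same on either strand. The 5 windows are shown on the strand of the gene, with the motif in capitals, because they include members of both families that went in opposite directions below.
Atp6v1a (chr16:44139369-44139406, minus strand): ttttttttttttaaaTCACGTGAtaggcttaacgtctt
Atp6v0d1 (chr8:105566046-105566083, minus strand): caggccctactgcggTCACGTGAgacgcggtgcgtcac
Atp6v0e (chr17:26676383-26676420, plus strand): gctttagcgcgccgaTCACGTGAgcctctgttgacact
Ctsa (chr2:164833745-164833799, plus strand): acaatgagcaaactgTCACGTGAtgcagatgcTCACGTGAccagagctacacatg
Ctsd (chr7:142387904-142387941, minus strand): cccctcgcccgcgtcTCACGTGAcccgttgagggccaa
Ctsa held the motif at 2 places and the others at 1. A match is a description of the letters, and binding was not measured.

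**Figure D1:**
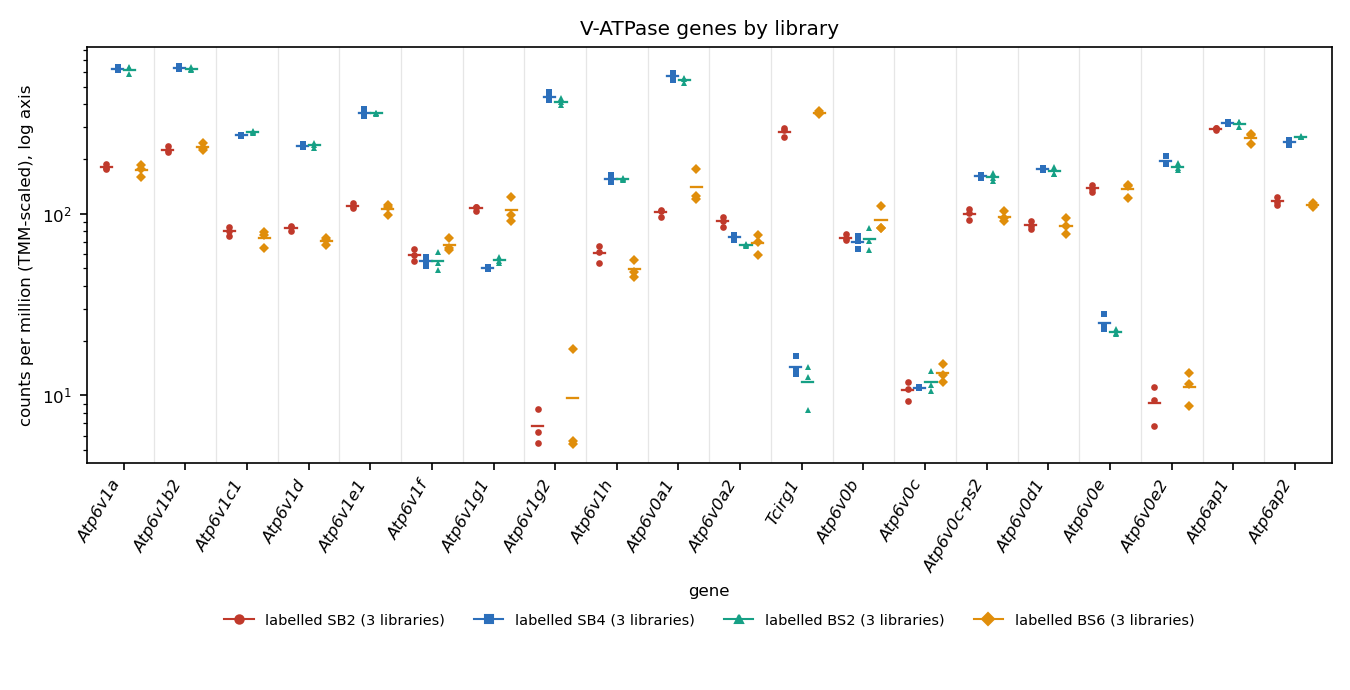
Level of the 20 V-ATPase genes that reached a group mean of 5 CPM, in CPM on a log axis. Points are libraries and short bars group means. Tcirg1 and Atp6v0e are high in SB2 and BS6, whereas Atp6v1g2 and Atp6v0e2 are high in SB4 and BS2.

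The change from day 2 to day 4 in the libraries labelled brain was examined first. A gene was called when its adjusted p was under 0.05 and its absolute log2 fold change over 1. Of 34 genes tested, 11 were higher in SB4 than in SB2, where 27.8% of all 17293 genes tested were called higher, and 13 were lower, where 28.6% were called lower. All 11 that rose were V-ATPase genes. The 13 that fell were 9 of the 12 cathepsins and 4 V-ATPase genes. With at least 10 counts required in every library, 11 genes were called higher and 10 lower. The share of all genes called under this filter is not given here. The median log2 fold change was 0.86 for the V-ATPase genes and -1.94 for the cathepsins, against -0.01 for all genes. All 10 neuron markers were also called higher, while the 8 osteoclast, 8 neutrophil and 10 of 12 macrophage and microglia markers tested were called lower. In the last list 1 marker was called higher. The part of these cell types in the changes was not tested.

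Between day 2 and day 6 in the libraries labelled skull the families moved the other way. Of 33 genes tested, 13 were higher in BS6 than in BS2, where 29.0% of 17311 genes were called higher, and 10 were lower, where 26.5% were called lower. The 13 were 11 cathepsins, Tcirg1 and Atp6v0e, and the 10 that fell were all V-ATPase genes. Medians were -0.96 for the V-ATPase genes and 2.44 for the cathepsins, against 0.02 for all genes. Here the 10 neuron markers were called lower and the 8 osteoclast, 8 neutrophil and 10 of the macrophage and microglia markers higher. Of the macrophage and microglia markers, 1 was called lower. The part of these cell types was again not tested. Without BS6 replicate 2 the counts of V-ATPase and cathepsin genes called were 14 higher and 11 lower. With at least 10 counts required in every library they were 11 and 10. The shares of all genes called under these settings are not given here.

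**Figure D2:**
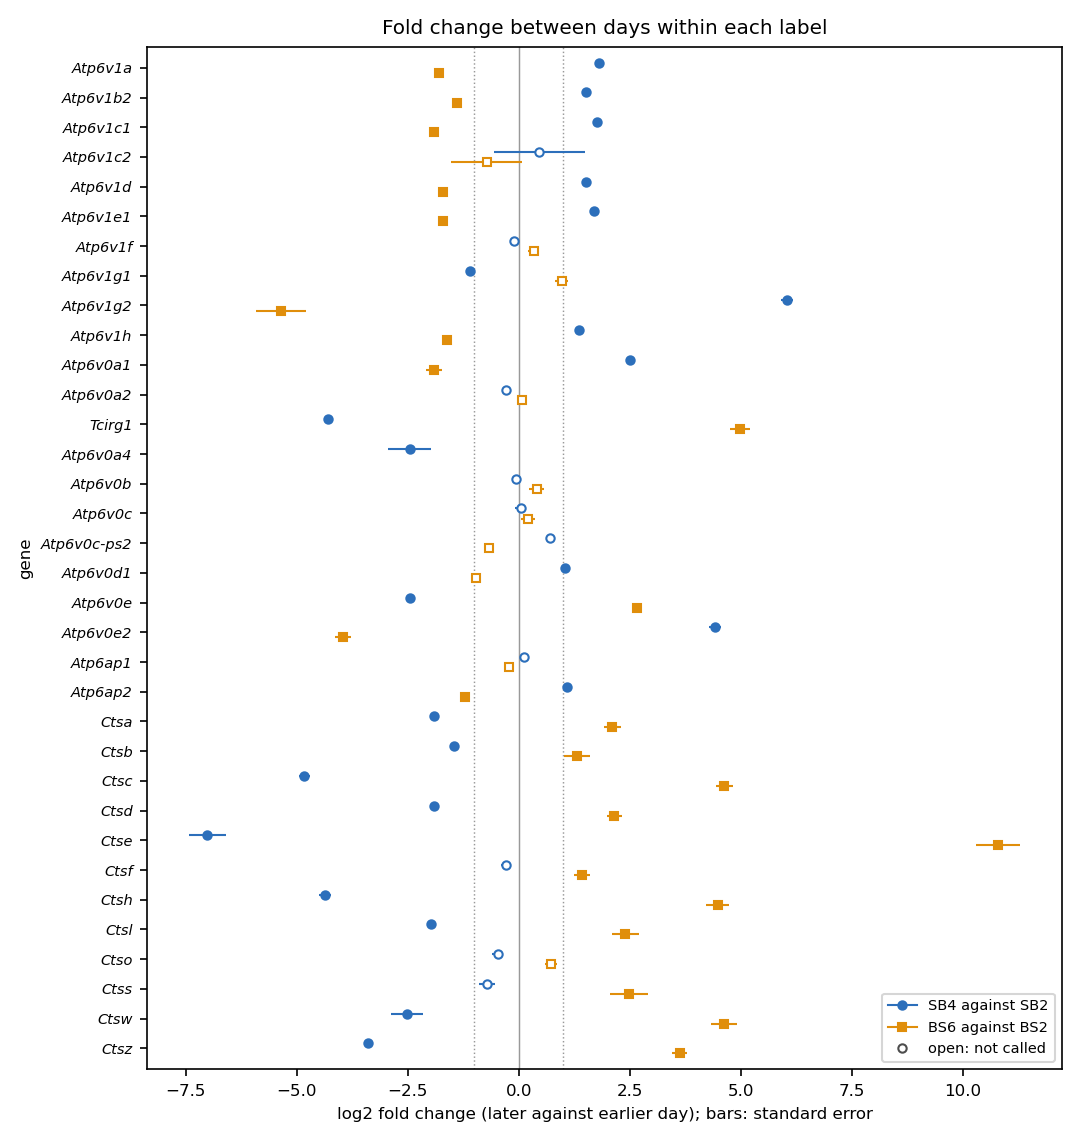
Log2 fold change of each gene from the earlier to the later day, with its standard error as bars. Circles compare SB4 with SB2 and squares BS6 with BS2, and open symbols were not called. Most symbols of a gene lie on opposite sides of 0. Among the V-ATPase genes with both symbols, Tcirg1, Atp6v0e and Atp6v1g1 lie furthest to the side of the cathepsins. Atp6v0a4, drawn only for SB4 against SB2, lies on that side too.

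The V1 sector has a ring of A and B subunits that bind ATP. Atp6v1a, the catalytic A subunit, measured 189, 179 and 177 CPM in SB2, 618, 644 and 626 in SB4, 634, 589 and 638 in BS2 and 185, 159 and 176 in BS6. The libraries of SB4 and BS2 did not overlap with those of SB2 and BS6. It rose by 1.80 ± 0.07 (log2 fold change ± SE, adjusted p = 4.94e-10) from SB2 to SB4 and fell by 1.80 on this scale (SE 0.11, adjusted p = 2.33e-05) from BS2 to BS6. Atp6v1b2, the B subunit of most tissues, behaved alike, with log2 fold changes of 1.5 ± 0.07 and -1.39 ± 0.10. The stalk and regulatory subunits Atp6v1c1, Atp6v1d, Atp6v1e1 and Atp6v1h rose by 1.36 to 1.76 in SB4 and fell by 1.62 to 1.91 in BS6. Atp6v1f, the F subunit of the central stalk, was not called in either comparison. It lay between 48.8 and 73.2 CPM in all 12 libraries, with log2 fold changes of -0.11 ± 0.08 and 0.33 ± 0.12.

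The G subunits of the peripheral stalk showed the largest contrast within V1. Atp6v1g2, known as the G isoform of neurons, measured 6.32, 8.46 and 5.50 CPM in SB2, 432, 465 and 421 in SB4, 395, 432 and 412 in BS2 and 5.61, 18.1 and 5.41 in BS6. The highest BS6 value was that of replicate 2, which also had the highest neuron marker sum of its group, and the part of neuron transcripts in it was not tested. Atp6v1g2 rose by 6.03 ± 0.13 (adjusted p = 1.29e-11) in SB4 and fell by 5.36 (SE 0.56, adjusted p = 2.05e-04) in BS6, or by 6.19 without BS6 replicate 2. Atp6v1g1, the G isoform found in most cells, went in the other direction. It measured 109, 109 and 103 CPM in SB2, 49.4, 50.7 and 49.9 in SB4, 55.2, 57.4 and 53.5 in BS2 and 91.7, 124 and 98.7 in BS6. Its fall of 1.09 (SE 0.06, adjusted p = 1.62e-08) in SB4 was called, and its difference of 0.96 ± 0.14 between BS6 and BS2 (adjusted p = 7.58e-04) was under the fold threshold, which it passed without BS6 replicate 1 (1.05) or replicate 3 (1.01).

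In the V0 sector the a subunits place the pump in a given membrane. Tcirg1 (a3), without which osteoclasts cannot resorb bone, measured 288, 296 and 265 CPM in SB2, 13.6, 16.4 and 13.0 in SB4, 8.32, 12.7 and 14.3 in BS2 and 369, 360 and 352 in BS6. It fell by 4.29 (SE 0.10, adjusted p = 7.01e-12) in SB4 and rose by 4.98 ± 0.23 (adjusted p = 8.39e-06) in BS6. Atp6v0a1 (a1), the main a isoform of neurons, did the reverse: it measured 105, 95.8 and 104 CPM in SB2, 546, 584 and 591 in SB4, 522, 560 and 548 in BS2 and 126, 175 and 121 in BS6. Its log2 fold changes were 2.50 ± 0.07 and -1.91 ± 0.18. Atp6v0a2 (a2), best known from the Golgi, stayed between 59.3 and 95.8 CPM in all libraries and was not called, with log2 fold changes of -0.28 ± 0.07 and 0.06 ± 0.11.

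The small e subunits were also split. Atp6v0e, the widespread isoform, measured 132, 138 and 144 CPM in SB2, 23.8, 27.9 and 23.2 in SB4, 21.7, 23.1 and 22.0 in BS2 and 144, 122 and 142 in BS6, with log2 fold changes of -2.46 ± 0.08 and 2.65 ± 0.10. Atp6v0e2, its paralog, measured 9.46, 6.79 and 11.1 CPM in SB2, 187, 207 and 187 in SB4, 173, 191 and 179 in BS2 and 8.74, 13.2 and 11.6 in BS6, with log2 fold changes of 4.41 ± 0.14 and -3.97 ± 0.18. No library of SB2 or BS6 reached the level of any library of SB4 or BS2 in Atp6v0e2, and the reverse held in Atp6v0e.

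The other V0 and accessory genes changed less. Atp6v0d1, the d subunit of most tissues that joins V1 to V0, rose by 1.03 ± 0.06 in SB4, which came to 1.00 and was not called without SB2 replicate 1, and was not called with upper-quartile factors (0.90) or total counts (0.94) either. Its difference of -0.96 ± 0.11 between BS6 and BS2 was not called, but was -1.03 and called without BS6 replicate 2. Atp6ap2, an accessory protein also known as the prorenin receptor, rose by 1.09 ± 0.07 in SB4, a call that was lost with upper-quartile factors (0.96) or total counts (1.00), and fell by 1.21 (SE 0.09) in BS6. Atp6ap1, the other accessory protein, lay between 242 and 320 CPM in all libraries, with log2 fold changes of 0.11 ± 0.06 and -0.22 ± 0.10. Atp6v0b, the c″ subunit, was not called either (-0.07 ± 0.08 and 0.40 ± 0.17), nor was Atp6v0c (0.04 ± 0.13 and 0.20 ± 0.16). The pseudogene Atp6v0c-ps2 passed the adjusted p but not the fold (0.70 ± 0.07 and -0.68 ± 0.10).

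**Figure D3:**
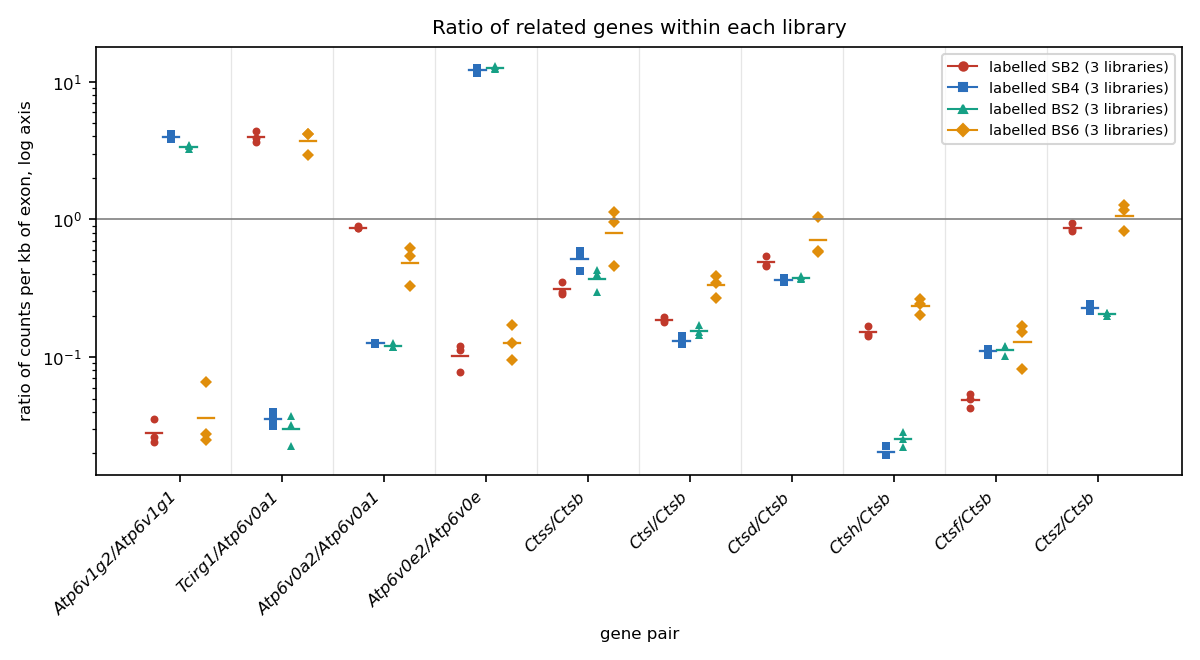
Ratio of counts per kb of exon of 10 gene pairs within each library, on a log axis. Points are libraries, short bars geometric means, and the line marks equal levels. In the pairs of G, a3 and a1, and e genes the ratio crosses 1 between SB2 and BS6 on one side and SB4 and BS2 on the other.

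A ratio of related genes within a library does not depend on how libraries are scaled. Per kb of exon, Atp6v1g2 stood to Atp6v1g1 at 0.0264, 0.0353 and 0.0243 in SB2, 3.96, 4.14 and 3.81 in SB4, 3.23, 3.40 and 3.48 in BS2 and 0.0278, 0.0662 and 0.0249 in BS6. The more abundant G gene thus differed between these pairs of groups. Tcirg1 stood to Atp6v0a1 at 3.90, 4.39 and 3.64 in SB2, 0.0356, 0.0400 and 0.0315 in SB4, 0.0228, 0.0323 and 0.0373 in BS2 and 4.18, 2.92 and 4.16 in BS6. Atp6v0e2 stood to Atp6v0e at 0.112, 0.0774 and 0.120 in SB2, 12.3, 11.5 and 12.6 in SB4, 12.4, 12.9 and 12.6 in BS2 and 0.0952, 0.1696 and 0.127 in BS6. In all 3 pairs the order of the genes was reversed between the libraries rich in brain transcripts and those rich in bone transcripts. Atp6v0a2 stayed below Atp6v0a1 in every library, with geometric means of 0.870 in SB2, 0.126 in SB4, 0.121 in BS2 and 0.480 in BS6.

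These ratios were tested for 10 pairs in 4 comparisons by a two-sided exact permutation test of the log2 ratios, in which 3 against 3 libraries cannot give a p below 0.1. That smallest p was reached in 28 of the 40 tests, by 10 pairs for SB4 against SB2, 9 for BS6 against BS2, 6 for BS6 against SB2 and 3 for SB4 against BS2, and its adjusted value over the 40 tests was 0.143. Ctss, Ctsl, Ctsd, Ctsh, Ctsf and Ctsz were each set against Ctsb, and Tcirg1 and Atp6v0a2 against Atp6v0a1. Tests that share a gene are not independent. Of those at the smallest p for BS6 against SB2, all but that of Atp6v0a2 shared Ctsb. The pair of Tcirg1 and Atp6v0a1 differed by -6.80 in log2 ratio between SB4 and SB2 and by 6.94 between BS6 and BS2, and by -0.10 between BS6 and SB2 (exact p = 0.8). The other 4 pairs planned held a gene with too few counts or, in the case of Atp6v1e2, a symbol absent from the table of counts.

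**Figure D4:**
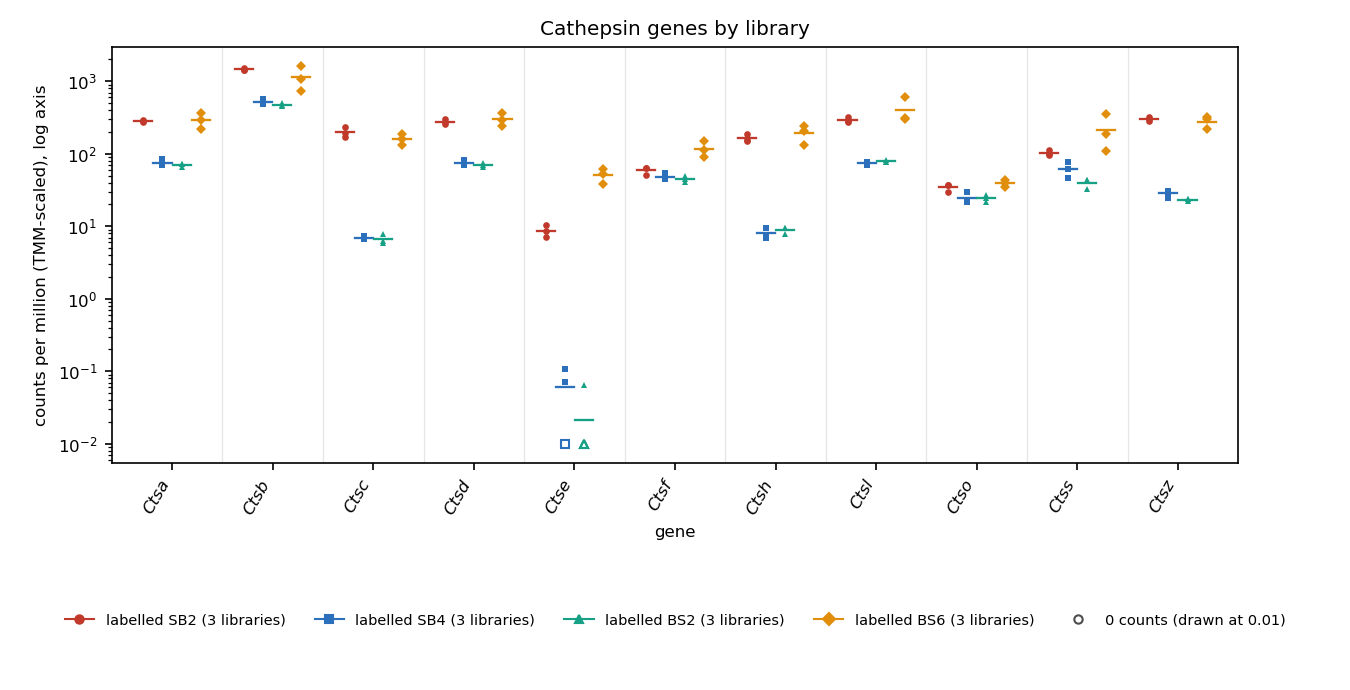
Level of the 11 cathepsins that reached a group mean of 5 CPM, in CPM on a log axis. Points are libraries and short bars group means, and open symbols at the bottom stand for 0 counts. Ctsc, Ctse, Ctsh and Ctsz show the widest gaps between SB2 and BS6 above and SB4 and BS2 below.

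Leaving out Ctsk, the cathepsins with the largest log2 fold changes between SB4 and SB2 were Ctse, Ctsc, Ctsh and Ctsz. Ctsc, the dipeptidyl peptidase that activates serine proteases of neutrophils and mast cells, measured 231, 170 and 191 CPM in SB2, 6.60, 7.39 and 6.74 in SB4, 5.96, 6.28 and 7.85 in BS2 and 186, 161 and 134 in BS6. It fell by 4.83 (SE 0.13, adjusted p = 1.26e-10) in SB4 and rose by 4.62 ± 0.19 (adjusted p = 6.28e-06) in BS6. Ctsh, an aminopeptidase, fell by 4.36 (SE 0.14) and rose by 4.48 ± 0.26. Ctsz, a carboxypeptidase, measured 286, 317 and 299 CPM in SB2, 29.7, 30.4 and 25.0 in SB4, 23.7, 23.5 and 22.5 in BS2 and 318, 219 and 297 in BS6, with log2 fold changes of -3.40 ± 0.09 and 3.62 ± 0.17.

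Ctse, an aspartic protease of red cell precursors, stomach and immune cells, had the widest range. It was counted 149, 156 and 118 times in SB2, 1, 2 and 0 times in SB4, 0, 1 and 0 times in BS2 and 594, 1033 and 825 times in BS6. Summed over libraries, the rate was 145 times higher in SB2 than in SB4 (95% counting interval 49.4 to 707) and 2387 times higher in BS6 than in BS2 (428 to 94310), and such intervals cover counting error only. Erythroid markers also differed. They summed to 1331 to 4645 CPM in SB2, 294 to 452 in SB4, 283 to 655 in BS2 and 7854 to 12780 in BS6. Of 7 tested, 6 were called lower and 1 higher in SB4 than in SB2. In BS6 against BS2, 6 were called higher and 0 lower. Neutrophil, macrophage and microglia markers differed in the same comparisons, as given above. The part of these cell types in the Ctse values was not tested. Ctsw, the cathepsin of NK and cytotoxic T cells, was low throughout, at 2.32 to 2.66 CPM in SB2, 0.218 to 0.638 in SB4, 0.128 to 0.236 in BS2 and 4.63 to 5.09 in BS6. Of 8 NK and T cell markers, 2 were in the table, and they summed to at most 6.65 CPM in any library.

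The endopeptidases and carboxypeptidase of most lysosomes changed by smaller folds. Ctsb, which degrades a wide range of proteins, measured 1422, 1420 and 1524 CPM in SB2, 515, 575 and 483 in SB4, 475, 496 and 453 in BS2 and 1630, 725 and 1070 in BS6. It fell by 1.47 (SE 0.09, adjusted p = 1.96e-08) in SB4. Its rise of 1.30 ± 0.29 (adjusted p = 0.00603) in BS6 was 0.96 and not called without BS6 replicate 1. Ctsd, the main lysosomal aspartic protease, changed by -1.90 ± 0.08 and 2.15 ± 0.17, and Ctsa, which also protects lysosomal sialidase, by -1.91 ± 0.08 and 2.1 ± 0.19. Ctsl, a cysteine endopeptidase, changed by -1.98 ± 0.08 and 2.40 ± 0.30, and its BS6 libraries were uneven at 604, 304 and 309 CPM. By annotation 34.4% of the exon bases of Ctsd overlap another gene on the same strand and 26.9% of those of Ctsl a gene on the other strand. A further gene overlaps 6.09% of Ctsl on the same strand. None of these other genes is in the table of counts. Of genes that are, Fdft1 overlaps 12.8% of Ctsb, and Pltp 10.5% and Neurl2 6.87% of Ctsa, all on the other strand.

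Ctsf, Ctso and Ctss were not called between SB4 and SB2. Ctss, a cysteine protease of antigen-presenting cells and microglia that also works at neutral pH, measured 112, 94.8 and 98.6 CPM in SB2, 62.5, 76.1 and 46.0 in SB4, 43.1, 32.9 and 43.4 in BS2 and 352, 185 and 111 in BS6. Its difference of -0.72 ± 0.18 in SB4 had an adjusted p of 0.00731 but missed the fold, and it rose by 2.48 ± 0.43 (adjusted p = 0.00199) in BS6. Ctsf rose by 1.42 ± 0.19 in BS6, with -0.29 ± 0.11 in SB4. Ctso, the lowest of the 3, lay between 21.5 and 43.6 CPM in all libraries and was not called in BS6 either (0.72 ± 0.14).

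4 genes stayed under 5 CPM in every group mean: Atp6v1b1, Atp6v1c2 and Atp6v0a4, isoforms known from acid-secreting epithelia such as those of the kidney and inner ear, and Ctsw. Atp6v1b1 was counted 59 times in SB2 replicate 3 and 0 and 1 times in the other SB2 libraries. The same library held the most counts of Atp6v1c2 (41) and Atp6v0a4 (52), and what set it apart was not tested. Without it, Atp6v1c2 was called higher in SB4 than in SB2 (3.30 ± 0.57, adjusted p = 2.46e-04), against 0.46 ± 1.02 with it. Atp6v0a4 was called lower in SB4 than in SB2 (-2.46 ± 0.49, adjusted p = 6.96e-04), from 0.932 to 3.18 CPM in SB2 to 0.279 to 0.497 in SB4. Atp6v1b1 passed the filter on low counts in neither comparison of days, and Atp6v0a4 only in that of SB4 and SB2.

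The difference between the changes over time was itself tested, by 1 contrast in a fit of the 12 libraries, (BS6 minus BS2) minus (SB4 minus SB2). Of 35 genes tested, 29 differed by it, where 73.6% of 18068 genes did. There were 17 with a positive difference, where 37.8% of all genes had one, and 12 with a negative one, where 35.8% did. All 12 cathepsins were positive, with a median of 4.22 on the log2 scale, and Ctso was the lowest at 1.21 ± 0.20 (adjusted p = 1.61e-04). The 5 positive V-ATPase genes were Tcirg1 (9.29 ± 0.25), Atp6v0e (5.12 ± 0.13), Atp6v0a4, Atp6v1g1 (2.06 ± 0.15) and Atp6v1b1, whose value of 7.05 ± 2.72 fell to 2.06 without SB2 replicate 3 (adjusted p = 0.579) and was not called without that library, SB4 replicate 2 or 3, BS2 replicate 1 or 3, or BS6 replicate 2 or 3. The 12 negative ones included the pseudogene Atp6v0c-ps2 (-1.37 ± 0.11) and were led by Atp6v1g2 (-11.38 ± 0.63) and Atp6v0e2 (-8.37 ± 0.26). The 6 without a called difference were Atp6v1c2 (called at -4.00 without SB2 replicate 3), Atp6v1f, Atp6v0a2, Atp6v0b, Atp6v0c and Atp6ap1. Atp6v1b1, Atp6v0a4, Ctse and Ctsw stayed under 10 counts in every SB4 and BS2 library, so they passed the filter through other groups. With at least 10 counts required in every library, 13 genes had a positive difference and 12 a negative one. The share of all genes called under that filter is not given here. Since SB2 and BS2 are the groups whose markers go against their labels, the difference follows the labels and cannot be told apart from the tissue content of the libraries.

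**Figure D5:**
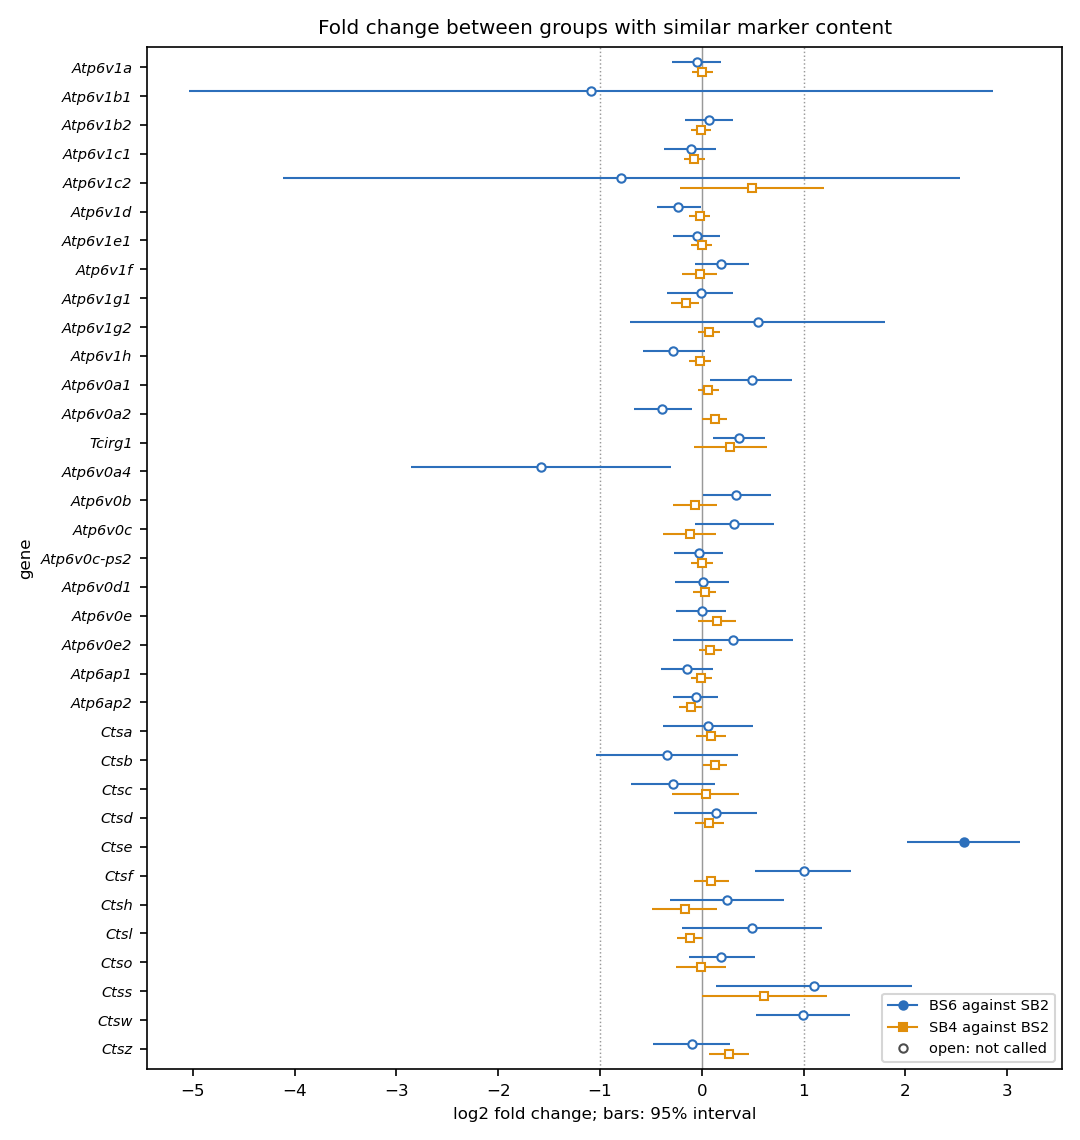
Log2 fold change of each gene between groups of similar marker content, with 95% intervals as bars. Circles compare BS6 with SB2 and squares SB4 with BS2, and open symbols were not called. Ctse alone is called, at 2.58 for BS6 against SB2, and the SB4 against BS2 values lie between -0.17 and 0.61.

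The groups rich in bone transcripts were then set against each other. Of 35 genes tested, 1 was higher in BS6 than in SB2, where 1.11% of 16329 genes were called higher, and 0 were lower, where 0.741% were. The gene was Ctse, at 8.49, 10.4 and 7.204 CPM in SB2 and 38.7, 62.4 and 52.5 in BS6, with a log2 fold change of 2.58 ± 0.23 (adjusted p = 0.0194). The libraries did not overlap, but the call was lost without any 1 of the SB2 replicates (adjusted p = 0.181, 0.0992 and 0.129 without replicates 1, 2 and 3) or without BS6 replicate 3 (adjusted p = 0.0503), with log2 fold changes of 2.46 to 2.72 in these 4 fits. Erythroid markers were higher in BS6 than in SB2 as well (1 of 7 called, median 2.35). Neutrophil lineage markers had a median of 2.96 with 0 of 8 called. For the 2 NK and T cell markers the median was 1.56 with 0 called. The part of these cell types was not tested. Ctsf (1.00 ± 0.20, adjusted p = 0.0440) and Ctsw (0.99 ± 0.20, adjusted p = 0.0425) passed the adjusted p, as 2.28% of all genes did in this direction, but not the fold, and Ctsf and Ctsw were both called without BS6 replicate 2. After Ctse the largest value among the cathepsins was that of Ctss, 1.1 ± 0.40 with an adjusted p of 0.135 in edgeR, and 0.56 without BS6 replicate 1. DESeq2 called all 4 of these cathepsins, with an adjusted p of 0.0384 for Ctss. The share of all genes that DESeq2 called in this comparison is not given here, so its count cannot be set against one. In edgeR Ctss was called with all 12 libraries in one fit (1.13, adjusted p = 0.0369).

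None of the 23 V-ATPase genes was called between BS6 and SB2 by edgeR or by DESeq2, with 6 at an unadjusted p under 0.05 in either tool, where 29.2% of all genes were in edgeR and 30.8% in DESeq2. The 95% interval of the log2 fold change was -0.29 to 0.19 for Atp6v1a, 0.11 to 0.62 for Tcirg1, 0.08 to 0.89 for Atp6v0a1 and -0.67 to -0.10 for Atp6v0a2. For Atp6v0a4, which was under 5 CPM, it was -2.86 to -0.30. Where these intervals leave out 0, the adjusted p was still 0.0869 for Tcirg1, 0.121 for Atp6v0a1, 0.0978 for Atp6v0a2 and 0.117 for Atp6v0a4. For Atp6v1b1 and Atp6v1c2 the intervals reached from -5.04 to 2.86 and from -4.11 to 2.54, too wide to tell a difference in either direction at these counts.

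Between the groups rich in brain transcripts, SB4 and BS2, 0 of 31 genes tested were called by edgeR or DESeq2, where edgeR called 0.086% of 16278 genes higher and 0.0614% lower. At an unadjusted p under 0.05 there were 4, where 11.9% of all genes were: Atp6v1g1, Atp6v0a2, Ctsb and Ctsz. Their log2 fold changes were -0.16 ± 0.07, 0.13 ± 0.06, 0.13 ± 0.06 and 0.27 ± 0.09. The largest value was that of Ctss, 0.61 ± 0.23 with a 95% interval up to 1.23 and an adjusted p of 0.422, whose SB4 and BS2 libraries did not overlap. Of the 21 V-ATPase genes tested, 20 had a log2 fold change between -0.16 and 0.28, and Atp6v1c2, with under 2 CPM, had 0.49.

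Other lysosomal genes were counted from lists, to be read against the 27.8% of all genes called higher and 28.6% called lower in SB4 than in SB2, and the 29.0% higher and 26.5% lower in BS6 than in BS2. Of 36 lysosomal hydrolases and activators, 18 were called lower and 1 higher in SB4 than in SB2 (median -1.01), and 20 higher and 1 lower in BS6 than in BS2 (median 1.22). Gusb, the beta-glucuronidase, measured 92.8 ± 7.36 CPM in SB2, 8.69 ± 0.978 in SB4, 8.62 ± 0.570 in BS2 and 86.6 ± 20.1 in BS6. Of 20 lysosomal membrane proteins and transporters, 11 were lower in SB4 and 11 higher in BS6, with 0 in the other direction. They included Cd63, a tetraspanin, at 697 ± 60.9 CPM in SB2 and 28.7 ± 2.92 in SB4, and Cd68, a marker of macrophages, at 123 ± 2.60 and 5.62 ± 0.272. In both lists most of the called genes had the direction of most cathepsins.

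Of 15 factors tested that assemble or regulate the V-ATPase, 6 rose and 0 fell in SB4 (median 0.58), and 1 rose and 7 fell in BS6 (median -0.40). In the contrast between both changes 5 were positive and 8 negative, against 37.8% and 35.8% of all genes. Dmxl2, a rabconnectin that helps V1 and V0 to join, measured 24.9 ± 3.53 CPM in SB2 and 281 ± 7.49 in SB4, and its partner Wdr7 251 ± 7.57 in BS2 and 32.0 ± 3.99 in BS6. Of 14 cathepsin inhibitors, 8 were tested, with 1 higher and 6 lower in SB4 (median -2.68) and 7 higher and 1 lower in BS6 (median 2.33). Between BS6 and SB2 the inhibitor Serpina3g was higher (2.47 ± 0.52, adjusted p = 0.0494) and Serpina3n, an inhibitor that is also secreted in acute inflammation, was lower (-2.23 ± 0.41, adjusted p = 0.0403). Of 12 genes of lysosomal sorting and transcription tested, 1 was higher and 4 lower in SB4, and 4 were higher and 1 lower in BS6, so that the larger count in each was close to the share of all genes. Tfeb fell by 2.1 (SE 0.13) in SB4 and rose by 2.39 ± 0.33 in BS6, while Sort1, a sorting receptor that is abundant in neurons, rose by 3.36 ± 0.09 and fell by 2.43 (SE 0.33).

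The 5 genes with TCACGTGA in the promoter window did not share a direction. Atp6v1a and Atp6v0d1 rose and Atp6v0e, Ctsa and Ctsd fell in SB4 compared with SB2. In BS6 compared with BS2, Atp6v1a fell and Atp6v0e, Ctsa and Ctsd rose, while Atp6v0d1 was not called.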

How the data were processed

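Poly(A) RNA of 12 libraries in 4 labelled groups of 3 was sequenced as paired reads. After read cleaning with fastp and mapping to mm10 with HISAT2 2.1.0, the authors deposited raw counts per gene symbol. The counting program, annotation, use of strand and order relative to their batch correction are not given in the sources used here, so overlapping genes and near-identical copies are uncertain. Groups were taken from the labels. The study's methods call the 3 libraries of a group biological replicates, but no source used here says that each is a separate animal, so p-values measure the spread between these libraries. Same-numbered libraries did not deviate together. Total counts lay between 14126082 and 18972654, and counts carry no molecular identifiers.

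Counts were tested in R 4.3.3 with edgeR 4.0.16 (filterByExpr with a minimum count of 10, TMM, robust quasi-likelihood fit of the groups compared), with Benjamini-Hochberg adjustment over all genes tested. The SE was derived from the test as |log2 fold change|/√F. The contrast between both changes used all 12 libraries. TPM used exon lengths of GENCODE M21 (22029 symbols matched). Pair ratios added 0.5 to counts and left out pairs under 10 counts. Alternatives were RLE and upper-quartile factors, total counts, other filters, DESeq2 1.42.0, adjusted p alone, a replicate block, 12 libraries in one fit, an offset of 2, and leaving out each library. Scripts were tested on simulated data.

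Every gene found by the symbol rule is accounted for, and those whose group mean reached 5 CPM are given with values. From the 5 lists of lysosomal genes, examples were taken from the 2 called genes with the largest change and at least 20 CPM. The members and lists, with 10 marker lists, were chosen with earlier results of these data known.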

Additional observations from a re-analysis of the deposited data

Results flagged for a closer look

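For 29 of the 35 genes the change from BS2 to BS6 differed from the change from SB2 to SB4 by the contrast over all 12 libraries (edgeR, adjusted p under 0.05 and absolute difference over 1), against 73.6% of all genes tested. For all 12 cathepsins the difference was called positive, against 37.8% of all genes. For 12 of 23 V-ATPase genes it was called negative, against 35.8%. SB2 and BS2 are the groups whose markers go against their labels. The difference follows the labels and cannot be told apart from the tissue content of the libraries. The cathepsins Ctse and Ctsw were under 10 counts in every SB4 and BS2 library. With at least 10 counts required in every library, 13 genes had a positive difference and 12 a negative one. The share of all genes called under that filter is not given here.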

How the results depend on the processing

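Values of genes that reached 5 CPM were recomputed under the alternatives for the 4 comparisons of groups. Over 1843 such values, 1810 stayed on their side of the threshold, 11 lost a call, 22 gained one, and 0 called values were reversed. Not counted were the contrast between both changes, the 4 genes under 5 CPM, and genes that a filter removed. Of the 1810, 63 values not called in either setting changed sign, and none was then larger than 0.28 in size. The count of genes called higher in BS6 than in SB2, 1 as reported, was 3 with RLE factors, 3 with at least 10 counts in every library, 3 by the adjusted p alone, 4 with DESeq2, 4 with all 12 libraries in one fit, and 0 with the replicate block. Leaving out a library gave 0 to 3 (0 without any SB2 replicate or BS6 replicate 3, and 3 without BS6 replicate 2). The count of genes called lower was 1 with all 12 libraries in one fit instead of 0. The cause was not tested. The share of all genes called higher was 2.28% by the adjusted p alone and is not given here for the other settings. Counts under those settings thus cannot be set against one. The replicate block changed no other call, and the numbers only name the libraries, with correlations of same-numbered libraries between -0.0941 and 0.0619. Without SB2 replicate 1, or with upper-quartile factors or total counts, Atp6v0d1 lost its call in SB4 (1.00, 0.90 and 0.94), as did Atp6ap2 with the last 2 (0.96 and 1.00). Upper-quartile factors moved the median of all genes by -0.13 for SB4 against SB2. All 280 recomputed pair ratios stayed within the spread or on the same side. Genes under 5 CPM are limited by depth.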
